A study of Mus musculus with 6 samples.

Results

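H3K27ac, the acetylation of histone H3 at lysine 27 that marks active promoters and enhancers, was examined at 8 genes of the bone morphogenetic protein (BMP) pathway in mouse embryonic stem cells (ESCs) before and shortly after degradation of OCT4. The genes were the ligand Bmp4, the receptor Bmpr1a, the signal transducers Smad1 and Smad5, the inhibitor Smad6, and the target genes Id1, Id2 and Id3. A peak was taken as belonging to a gene when it overlapped the gene body or the 10 kb on either side (GENCODE vM21 on GRCm38). By this rule 14 of the 31131 peaks in the series lay at 6 of the 8 genes, and Bmp4 and Id2 had 0. Over the whole series, 13769 of 21911 protein-coding genes (62.8%) had a peak by the same rule.

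BMP ligands bind a complex of type I and type II receptors, whose kinase activity phosphorylates SMAD1 and SMAD5. These enter the nucleus with SMAD4, bind GC-rich SMAD elements and activate targets such as the Id genes, whose products hold E proteins in a form that cannot bind DNA. SMAD6 is itself a target of the pathway and blocks it as negative feedback. In mouse ESCs, BMP together with leukemia inhibitory factor (LIF) can sustain self-renewal through Id genes. The medium used here contained PD03 and Chiron, inhibitors of the ERK pathway and of GSK3, with LIF, and the labels list no BMP or serum.

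All 6 libraries came from O4AID ESCs of strain 129SV, which lack endogenous Oct4 (Oct4-/-), hold a TetOFF Oct4 transgene kept silent with doxycycline, and live on Oct4AID, OCT4 fused to an auxin-inducible degron. Oct4AID and the ubiquitin ligase adaptor Tir1 are both driven by the CAG promoter, and doxycycline was given to both groups. Uninduced cells gave 3 immunoprecipitations (IPs), and cells given the auxin IAA (indole-3-acetic acid) at 500 μM for 1.5 h gave another 3. No auxin-treated cells without Oct4AID were analyzed here, so in these libraries an effect of auxin itself and loss of OCT4 cannot be told apart. The paper did treat eGFP-AID ESCs with IAA. By ChIP-qPCR it saw no change of H3K27ac there at the distal enhancers of Klf4 and Prdm14. The BMP genes were not among the sites it measured in this way.

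Peaks were called by the authors on the uninduced IPs, so a region acetylated only after IAA would be missing. The same uninduced IPs are 1 side of every comparison below. This choice of peaks favours a fall after IAA, at these genes and in the whole series, most of all where reads are few. How much of each fall, call or separation of groups comes from it was not tested. Their values are in RPKM, reads scaled to peak length and library size. Of all reads, 6.63% to 7.12% lay in peaks in the uninduced libraries and 4.05% to 5.15% in the IAA libraries, the lowest being IAA replicate 3. As RPKM divides by all reads, a weaker IP and less acetylation, or fewer cells with the mark and less of it per cell, cannot be told apart. The main counts of calls are therefore given on RPKM as deposited and again after each library was set against its own median peak. Values of single peaks and genes are given on the second scale only in part. All 7 ESC marker genes checked (Pou5f1, Sox2, Nanog, Esrrb, Klf4, Zfp42 and Tfcp2l1) had a peak, with a summed level of 42.5 to 44.6 RPKM in uninduced and 21.5 to 27.9 RPKM in IAA libraries. Of the trophoblast markers 3 of 6 had a peak (Gata3, Hand1 and Tfap2c, summing to 6.52 to 7.31 and 4.01 to 5.13 RPKM), and Cdx2, Eomes and Elf5 had none. Of the primitive endoderm markers only Gata6 of 6 had one (1.25 to 1.68 and 0.912 to 1.2 RPKM), and of the fibroblast markers only Col1a1 of 5 (2.48 to 2.97 and 1.32 to 2.47 RPKM). Each of these sums was lower in every IAA library than in every uninduced library, and their part in the results was not tested.

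The peaks divided into 9 within 1 kb of a transcription start of their own gene and 5 farther away. Bmpr1a, Smad1, Smad5 and Id3 had only the first kind. Id1 had only the second, 3 peaks placed 5 to 9 kb from its single start, and Smad6 had both. No start of another protein-coding gene lay within 1 kb of any of the 14. The map of peak positions shows this arrangement for all 8 genes.

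**Figure D1:**
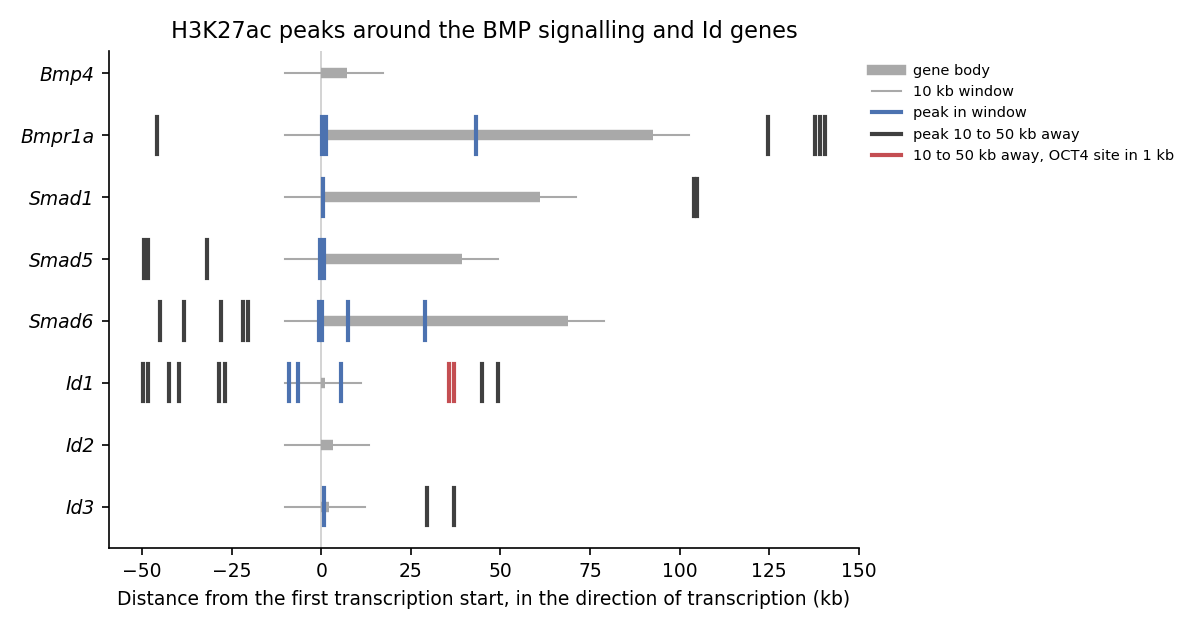
Positions of H3K27ac peaks along each gene, in kb from its first transcription start (x axis), with 1 row per gene. Thick grey lines are gene bodies, thin lines the 10 kb windows, blue ticks the 14 peaks in the windows, black ticks peaks 10 to 50 kb away and red ticks the 2 of those with an OCT4 site within 1 kb, both downstream of Id1.

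None of the 14 peaks carried the authors' mark for an OCT4 site within 1 kb, a mark taken from published OCT4 ChIP-seq and found on 17.6% of the 26457 peaks that reached 0.5 RPKM in the mean of at least 1 group. By gene, 19.7% of the genes with a peak had a marked peak in their window. The distance from a BMP gene peak to the nearest marked peak was between 29501 and 274567 bases, with a median of 151069. In the sequences of the 14, the octamer ATGCAAAT and the core of the OCT4-SOX2 composite element, searched on both strands over the whole of each peak, had 0 matches. Over the central 300 bases of all peaks these letters occurred in 1.13% and 0.15%, so that few matches would be found in any 14 peaks.

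The GC-rich SMAD element, here GGCGCC (its own reverse complement), was found in the central 300 bases of 5 of the 14 peaks, against 9.55% of all peaks. They were at Bmpr1a, Id1, Id3, Smad1 and Smad6, and all but that of Id1 lay within 1 kb of a start. Of the 14 peaks 9 were of this kind, against 11818 of all 26457. The share of such peaks with the element was not computed, so the 9.55% is not a like comparison. The palindromic SMAD box GTCTAGAC was in 0 of the 14 and in 0.29% of all. 4 of the elements are shown with 30 bases on each side because they give the sequence that SMAD proteins are known to bind, inside acetylated DNA at genes of their own pathway. The letters come from GRCm38 on the strand of the gene, with the element in capitals, and a match is not evidence of binding. The Bmpr1a and Smad1 elements are intronic, the Id1 element is 6 kb upstream of the gene and the Id3 element is in coding sequence.
Bmpr1a, chr14:34501999-34502064, minus strand: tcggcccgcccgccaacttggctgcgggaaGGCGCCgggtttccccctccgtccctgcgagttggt
Smad1, chr8:79398933-79398998, minus strand: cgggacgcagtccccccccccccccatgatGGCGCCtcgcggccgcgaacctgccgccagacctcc
Id1, chr2:152729711-152729776, plus strand: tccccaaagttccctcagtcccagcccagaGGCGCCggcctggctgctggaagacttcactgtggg
Id3, chr4:136144109-136144174, plus strand: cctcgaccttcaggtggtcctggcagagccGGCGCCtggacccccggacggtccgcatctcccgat

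RefSeq promoters (250 bases before to 50 after a start, GRCm38.p6) were matched for 7 of the 8 genes, in 9 entries of which 3 were of Smad5. Id1 had no entry. GGCGCC was in 4 of the 9, at Bmpr1a, at Id2 and in 2 entries of Smad5, against 11.87% of 32851 promoters. The 2 Smad5 entries overlap and hold the same element, so the 4 are not separate elements. GTCTAGAC was in 1 of the 9, at Smad6, against 0.21% of all promoters. It begins 4 bases before the annotated start. The Smad6 promoter is printed up to the end of this box, in capitals, because it lies in the gap between the peaks on either side of the start and holds the only full box among the 14 peaks and 9 promoter entries of these genes.
Smad6, chr9:64022056-64022309, minus strand: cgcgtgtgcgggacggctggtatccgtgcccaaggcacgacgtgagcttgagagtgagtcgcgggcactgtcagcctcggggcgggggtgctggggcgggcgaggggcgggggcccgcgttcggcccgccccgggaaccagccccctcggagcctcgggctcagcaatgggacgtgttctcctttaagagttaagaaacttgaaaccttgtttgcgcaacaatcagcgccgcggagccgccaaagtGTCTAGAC

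The effect of 1.5 h of IAA was then compared peak by peak on log2(RPKM + 0.1), a scale that slightly understates the change of low peaks. The mean after IAA was lower at all 14 peaks. Their log2 changes ran from -0.92 to -0.16 around a median of -0.50, against a median of -0.55 over all 26457 peaks. By limma, 9 of the 14 were lower at an adjusted p under 0.05, and in the same 9 the IAA and uninduced libraries did not overlap. Among all peaks, 68.2% were lower by limma and 71.2% had groups that did not overlap, so the BMP gene peaks were lower about as often as peaks in general. Relative to the median peak, 0 of the 14 changed by limma, 1 had an unadjusted p under 0.05, and 5 lay below 0 and 9 above. On this scale 2.51% of all peaks were called in either direction. Single libraries weighed heavily on the count, which fell to 4 of 14 without uninduced replicate 1 (39.2% of all peaks), and to 5 of 14 without IAA replicate 2 (57.8%) or IAA replicate 3 (54.4%). Only 2 of the 9, the second Bmpr1a peak and the first Id1 peak, were lower in every such fit.

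**Figure D2:**
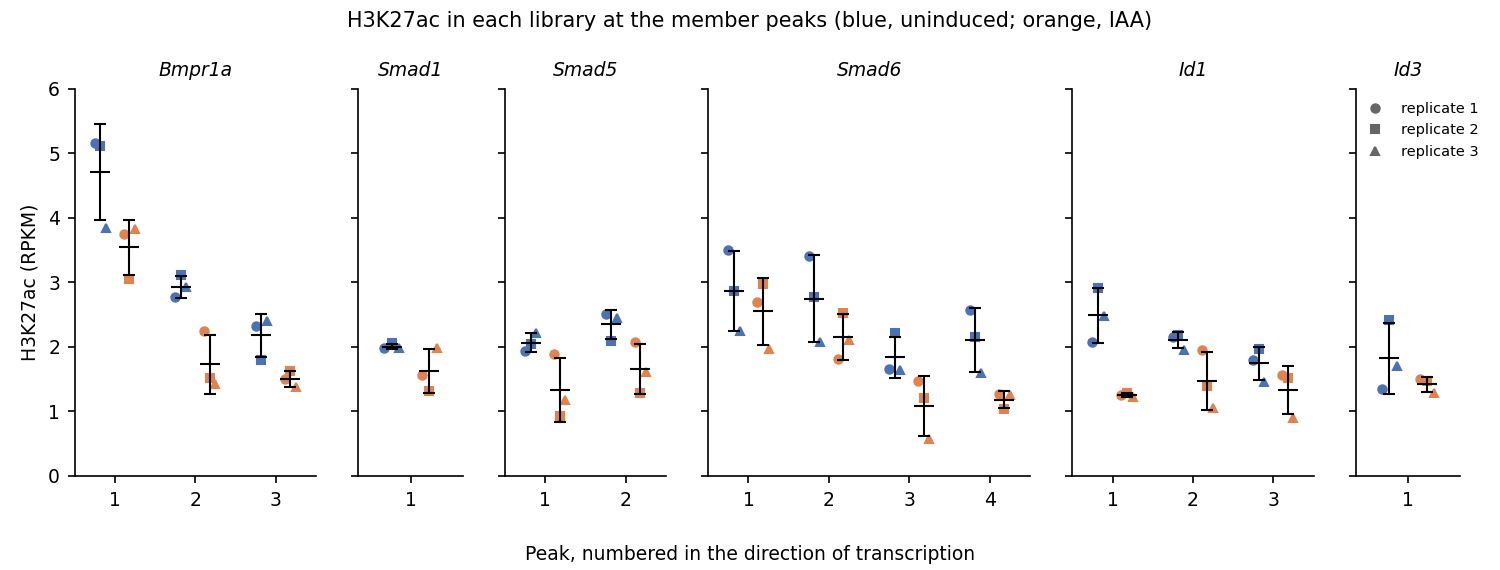
H3K27ac in RPKM (y axis) at each of the 14 peaks, numbered in the direction of transcription within each gene (x axis). Points are single libraries with 1 shape per replicate number, blue for uninduced and orange for IAA, and black bars are the mean ± SD (n = 3). The first Bmpr1a peak is highest, at 4.71 RPKM uninduced, and the 2 groups of the first Id1 peak lie far apart.

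The receptor Bmpr1a, the type I receptor through which BMP4 signals, had the strongest acetylation of the 8 genes. Its gene body is at chr14:34410734-34503341 on the minus strand, with 4 annotated starts. The first peak (34502911 to 34503528) covers the outermost start and its exon, and read 5.16, 5.12 and 3.85 RPKM in uninduced replicates 1, 2 and 3, and 3.75, 3.05 and 3.83 RPKM in IAA replicates 1, 2 and 3. The groups were separated by a narrow margin, 3.83 against 3.85 RPKM, and the log2 change was -0.39 (SE 0.166, limma adjusted p = 0.0419). The second peak (34501545 to 34502276) is intronic, 252 bases downstream of another start, and holds the GGCGCC printed above. It read 2.77, 3.11 and 2.93 RPKM uninduced and 2.25, 1.52 and 1.42 RPKM after IAA, a log2 change of -0.76 (SE 0.190, limma adjusted p = 0.00406) with a clear gap between the groups. The start of the antisense transcript Gm17110 lies inside it, and acetylation cannot be divided between overlapping genes.

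The third Bmpr1a peak (34459337 to 34460901) covers an internal start 42440 bases downstream of the first one. It read 2.33, 1.80 and 2.41 RPKM uninduced and 1.50, 1.63 and 1.38 RPKM after IAA, again without overlap (log2 change -0.50, SE 0.192, limma adjusted p = 0.0297). Its CpG content was the lowest of the 9 promoter peaks, 0.32 of that expected from its base composition, against 0.90 and 1.05 in the other two. The call of this peak was lost without uninduced replicate 1, uninduced replicate 3 or IAA replicate 3, and that of the first peak without uninduced replicate 1, uninduced replicate 2 or IAA replicate 2. Relative to the median peak, the changes of the 3 peaks were 0.16, -0.21 and 0.05 on the log2 scale, with limma adjusted p of 0.703, 0.60 and 0.933.

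Of the receptor-regulated SMADs, Smad5 had lower acetylation after IAA and Smad1 did not pass the test. Smad5 (chr13:56703010-56742377, plus strand) had a peak 170 bases upstream of its first start (56702422 to 56702840), with 1.94, 2.04 and 2.22 RPKM uninduced and 1.89, 0.928 and 1.17 RPKM after IAA. A second peak (56703576 to 56704240) covers another start and read 2.51, 2.09 and 2.45 RPKM uninduced and 2.07, 1.29 and 1.61 RPKM after IAA. In both, IAA replicate 1 lay just under the lowest uninduced library and the other IAA replicates well below. The log2 changes were -0.65 (SE 0.230, limma adjusted p = 0.0203) and -0.50 (SE 0.197, limma adjusted p = 0.0328), and neither was called without uninduced replicate 3, IAA replicate 2 or IAA replicate 3. The second was also not called without uninduced replicate 1. The starts of 3 short noncoding RNAs (Gm27301, Gm27834 and Gm27271) lie within the second peak.

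Smad1 (chr8:79338395-79399518, minus strand) had a single peak (79398783 to 79399306), 212 bases downstream of its first start and the richest of the 14 in G and C, at 74.8%. It read 1.98, 2.06 and 1.98 RPKM uninduced and 1.57, 1.32 and 1.99 RPKM after IAA. The uninduced libraries were nearly equal, and IAA replicate 3 alone was as high as they were, although this library was the lowest over all peaks. The log2 change was -0.30 (SE 0.195, limma adjusted p = 0.160). Without IAA replicate 3 the same region, scored as a gene, had a change of -0.45 and was called (limma adjusted p = 0.0187), whereas without IAA replicate 2 the change was -0.17 (limma adjusted p = 0.406).

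Smad6, the inhibitory SMAD, had 4 peaks, more than any other of the 8 genes, with different values at the promoter and in the gene (chr9:63953076-64022059, minus strand). The peak upstream of the start (64022329 to 64022915) read 3.50, 2.86 and 2.25 RPKM uninduced and 2.70, 2.98 and 1.97 RPKM after IAA. The groups overlapped, with a log2 change of -0.16 (SE 0.194, limma adjusted p = 0.438). The peak just inside the gene (64021737 to 64022011), over exon and coding sequence, read 3.41, 2.77 and 2.07 RPKM uninduced and 1.82, 2.53 and 2.11 RPKM after IAA, also with overlap (log2 change -0.33, SE 0.196, limma adjusted p = 0.134), although it was called without uninduced replicate 3. In both promoter peaks uninduced replicate 1 was highest and uninduced replicate 3 lowest of its group, so the uninduced spread was as large as the difference between the groups.

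The peaks farther inside Smad6, both intronic, were lower. The one 7217 bases from the first start (64014384 to 64014842) read 1.66, 2.21 and 1.64 RPKM uninduced and 1.47, 1.21 and 0.567 RPKM after IAA (log2 change -0.79, SE 0.270, limma adjusted p = 0.0184). It rests on few reads, 9 in IAA replicate 3, and was not called without that library or without uninduced replicate 2. The one 28755 bases from the first start (63992657 to 63993304) read 2.58, 2.15 and 1.60 RPKM uninduced and 1.27, 1.03 and 1.25 RPKM after IAA, with no overlap (log2 change -0.77, SE 0.216, limma adjusted p = 0.00738). It was called in 5 of the 6 fits with a library left out, the exception being that without uninduced replicate 1.

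Whether the Smad6 introns lost more than the promoter was examined as a ratio within each library, which a factor common to all its peaks cannot move. A scaling that treats strong and weak peaks differently, or more background in a weaker IP, could still move it. Mean H3K27ac of the intronic pair of peaks over that of the promoter pair was 0.633, 0.768 and 0.736 in uninduced and 0.559, 0.389 and 0.480 in IAA libraries. All 3 IAA ratios were below all 3 uninduced ratios (0.476 ± 0.0850 against 0.712 ± 0.0705, SD, n = 3; two-sided exact permutation, p = 0.1, which is the lowest this design can give). This comparison was chosen after the values had been seen. Set against the median peak, the first Smad6 peak had the highest value of the 14, 0.39 on the log2 scale (SE 0.155, limma adjusted p = 0.258), and the intronic peaks were at -0.23 and -0.21 (limma adjusted p of 0.754 and 0.718).

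The first 300 bases of the Smad6 peak upstream of the start, counted from its end nearest the gene, are shown beside the whole of the first Id1 peak because these were the peaks with the smallest and the largest log2 change of the 14. Both are printed 5′ to 3′ from GRCm38 on the strand of the gene with every CG in capitals. The Smad6 sequence has 19 CpG in 300 bases (62.3% G and C), and the Id1 sequence 3 in 281 bases (60.9% G and C).
Smad6, chr9:64022330-64022629, minus strand: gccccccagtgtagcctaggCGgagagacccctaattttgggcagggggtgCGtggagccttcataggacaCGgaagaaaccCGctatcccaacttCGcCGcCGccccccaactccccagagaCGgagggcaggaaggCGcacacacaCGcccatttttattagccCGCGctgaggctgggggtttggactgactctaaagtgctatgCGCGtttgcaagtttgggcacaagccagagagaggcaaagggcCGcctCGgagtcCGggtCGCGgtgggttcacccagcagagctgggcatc
Id1, chr2:152727099-152727379, plus strand: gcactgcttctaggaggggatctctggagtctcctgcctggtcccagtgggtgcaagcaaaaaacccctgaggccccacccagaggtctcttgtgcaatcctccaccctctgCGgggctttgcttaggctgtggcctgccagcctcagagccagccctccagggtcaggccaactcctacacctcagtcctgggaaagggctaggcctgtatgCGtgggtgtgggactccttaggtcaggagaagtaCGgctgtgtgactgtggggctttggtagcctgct

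This difference in CpG followed position. Over the 9 promoter peaks the observed share of CpG was 0.32 to 1.05 of that expected (median 0.73, against 0.67 over 11818 promoter peaks), and over the 5 others it was 0.12 to 0.24 (median 0.16, against 0.23 over 14639 peaks away from starts). The median log2 change was -0.39 at the 9 promoter peaks, of which 5 were called lower, and -0.77 at the 5 others, of which 4 were. Over all peaks the same medians were -0.53 and -0.58, with 71.2% and 65.8% called lower, and the difference between the kinds of BMP gene peak was not tested.

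Id1, which encodes an inhibitor of DNA binding and is a direct target of BMP signalling, had no peak at its promoter. Its gene (chr2:152736251-152737410, plus strand) is short, and the 3 peaks in its window lie outside it. The first (152727098 to 152727379), 8872 bases upstream of the start, read 2.07, 2.92 and 2.48 RPKM uninduced and 1.25, 1.28 and 1.23 RPKM after IAA. The IAA libraries were nearly equal and all well below the lowest uninduced library. The log2 change, -0.92 (SE 0.193, limma adjusted p = 0.00140), was the largest fall of the 14. It rests on 12 to 27 reads per library. After centring on the median peak it was -0.37 (SE 0.174, limma unadjusted p = 0.0550, adjusted p = 0.365).

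The second Id1 peak (152729459 to 152730196), 6055 bases upstream, read 2.16, 2.19 and 1.96 RPKM uninduced and 1.95, 1.39 and 1.06 RPKM after IAA. The margin between the groups was narrow, the log2 change was -0.53 (SE 0.214, limma adjusted p = 0.0359), and of the 6 fits with a library left out it was called only in that without IAA replicate 1. Peak 3 (152741344 to 152742017), 5093 bases downstream of the start, read 1.80, 1.97 and 1.46 RPKM uninduced and 1.57, 1.52 and 0.90 RPKM after IAA, with overlap (log2 change -0.39, SE 0.231, limma adjusted p = 0.124). The ratio of the first peak to the other two was 1.04, 1.40 and 1.44 uninduced and 0.708, 0.882 and 1.25 after IAA, with overlap (exact two-sided permutation test, p = 0.2).

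Id3, another inhibitor of DNA binding, had 1 peak (136143972 to 136144442, chromosome 4), inside the gene (chr4:136143497-136145755, plus strand) over exons that include coding sequence. It read 1.35, 2.42 and 1.70 RPKM uninduced and 1.50, 1.47 and 1.29 RPKM after IAA. The IAA libraries were close together, but uninduced replicate 1 was below IAA replicates 1 and 2. The log2 change was -0.30 (SE 0.221, limma adjusted p = 0.207), on 21 to 36 reads per library.

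**Figure D3:**
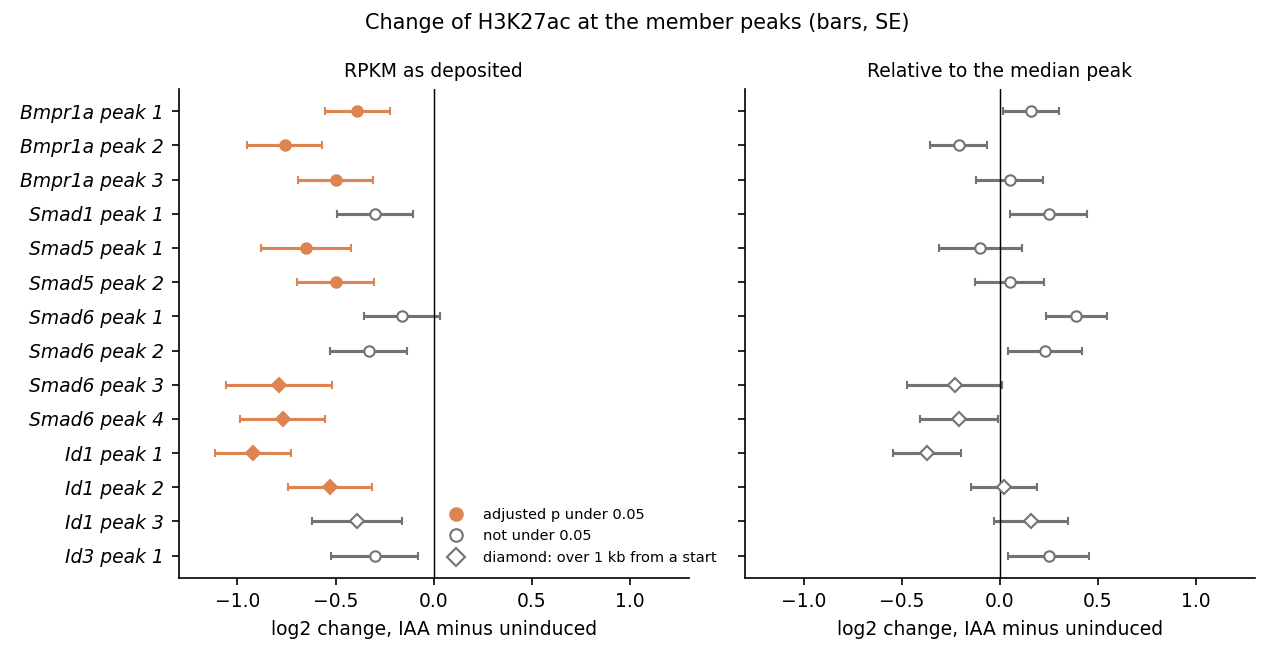
log2 change of H3K27ac after IAA (x axis) at each of the 14 peaks (rows), with the SE from limma, on RPKM as deposited (left) and set against the median peak of the library (right). Filled orange points have an adjusted p under 0.05 and diamonds mark peaks over 1 kb from a start. On the left 9 points are filled, and on the right 0 are.

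Bmp4, a BMP ligand, and Id2, a further inhibitor of DNA binding, had no peak within 10 kb, nor any within 50 kb. Bmp4 (chr14:46383520-46390669, minus strand) was 298728 bases from the nearest peak, which had under 0.05 RPKM in every library and is thus below the threshold of 0.5 RPKM used for background. These values stand for 1 read per library, the fewest of any peak in the deposited data, so they are not a measured level. Id2 (chr12:25093799-25097140, minus strand) was 118311 bases from the nearest, at the start of Kidins220. That peak read 1.85, 1.81 and 2.02 RPKM uninduced and 1.96, 1.06 and 1.29 RPKM after IAA (log2 change -0.42, limma adjusted p = 0.0929). Low acetylation at a gene without a peak was not measured.

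Each gene was then given 1 value per library, the mean RPKM of its peaks weighted by their length, and tested among the 13769 genes with a peak. For Bmpr1a it was 3.04, 2.83 and 2.85 RPKM uninduced and 2.16, 1.90 and 1.91 RPKM after IAA, 2.91 ± 0.115 against 1.99 ± 0.148 (SD, n = 3). It was lower after IAA with a log2 change of -0.52 (SE 0.137, limma adjusted p = 0.00451). Bmpr1a was the most firmly measured of the genes, with 193 to 350 reads per library. Uninduced, it was also the highest, and its 3 libraries lay above all those of Smad6, the next in order.

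Smad6 had 2.75, 2.46 and 1.87 RPKM uninduced and 1.82, 1.86 and 1.42 RPKM after IAA (log2 change -0.44, SE 0.169, limma adjusted p = 0.0249). The groups were only just separate, and the call was lost without uninduced replicate 1 (limma adjusted p = 0.150), uninduced replicate 2 (limma adjusted p = 0.0661) or IAA replicate 3 (limma adjusted p = 0.0920). Smad5 had 2.29, 2.07 and 2.36 RPKM uninduced and 2.0, 1.15 and 1.44 RPKM after IAA (log2 change -0.55, SE 0.181, limma adjusted p = 0.0120), and the call was lost without IAA replicate 2 (limma adjusted p = 0.0763). Id1 had 2.0, 2.22 and 1.85 RPKM uninduced and 1.68, 1.43 and 1.02 RPKM after IAA (log2 change -0.55, SE 0.184, limma adjusted p = 0.0138), and remained called in all 6 fits with a library left out, at -0.36 without IAA replicate 3 and -0.695 without IAA replicate 1. Smad1 and Id3, with 1 peak each, had log2 changes of -0.30 (SE 0.167 and 0.196) with limma adjusted p of 0.0989 and 0.154. For Id3 the value was -0.09 without uninduced replicate 2 (limma adjusted p = 0.725) and -0.49 without uninduced replicate 1 (limma adjusted p = 0.0507). In uninduced cells the order after Bmpr1a was Smad6 (2.36 ± 0.452 RPKM), Smad5 (2.24 ± 0.150), Id1 (2.03 ± 0.189), Smad1 (2.0 ± 0.0442) and Id3 (1.82 ± 0.548; SD, n = 3), and each neighbouring pair of these overlapped.

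The fall was therefore called at 4 of the 6 genes with a peak, Bmpr1a, Smad5, Smad6 and Id1, and in the same 4 the groups did not overlap. Among all genes with a peak, 81.0% were lower by limma and 78.8% had groups that did not overlap. The median log2 change over the 6 was -0.48, against -0.51 over all genes (quartiles -0.61 and -0.41). Bmpr1a, Smad5, Smad6 and Id1 were within these quartiles. Values lower than theirs were found in 45.2%, 37.9%, 68.4% and 39.1% of genes, and lower than those of Smad1 and Id3 in 88.4% and 88.3%. Relative to the median peak, 0 of the 6 changed, with 0 at an unadjusted limma p under 0.05, against 1.22% of all genes called in either direction. On that scale the 6 had log2 changes of 0.00 to 0.25 and a median of 0.07, and all genes a median of 0.05.

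**Figure D4:**
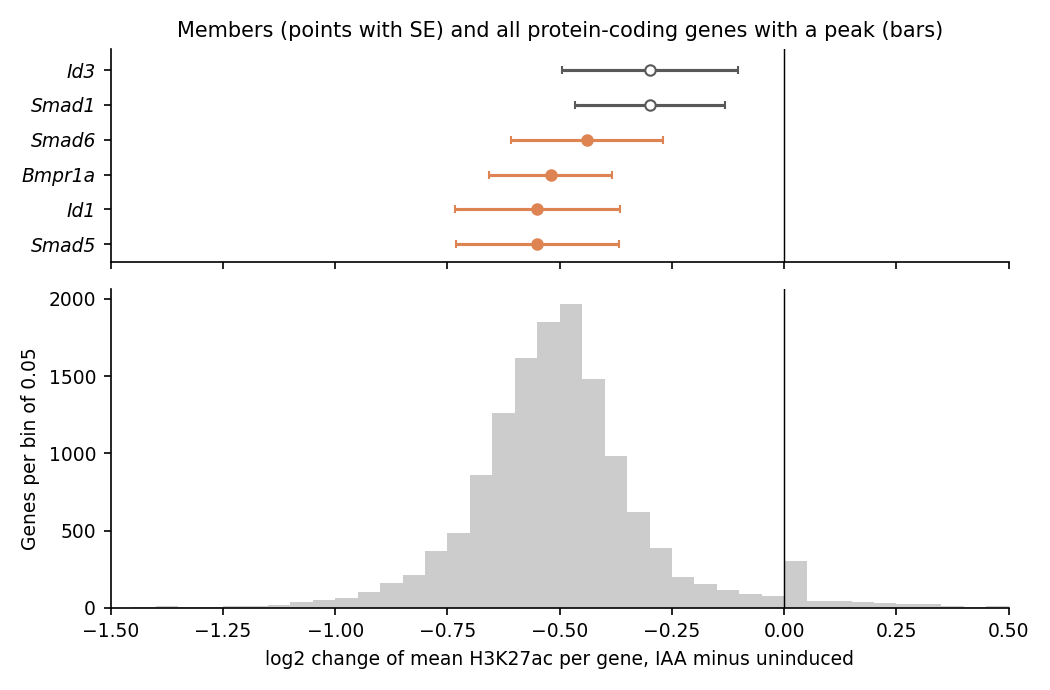
Upper panel, log2 change per gene after IAA (x axis) for the 6 genes with a peak, with the SE from limma; filled orange points have an adjusted p under 0.05. Lower panel, number of the 13769 protein-coding genes with a peak in each bin of the same axis (y axis), with the median at -0.51. Bmpr1a, Smad5, Smad6 and Id1 lie between the quartiles (-0.61 and -0.41), and Smad1 and Id3 above the upper one.

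The windows were widened to 50 kb to take in more distant peaks. This added 27 peaks at the 6 genes, of which 20 were lower by limma (68.2% of all peaks were), with log2 changes of -1.03 to -0.22 and a median of -0.55. Against the median peak 0 of the 27 changed. Of these peaks, 2 carried the OCT4 mark, and both were downstream of Id1 (152771518 to 152772250 and 152772715 to 152773815), outside any protein-coding gene. The first read 3.90, 3.67 and 4.27 RPKM uninduced and 2.20, 2.46 and 1.81 RPKM after IAA (log2 change -0.85, SE 0.167, limma adjusted p = 0.000911), and the second 2.64, 2.56 and 2.84 RPKM against 1.84, 1.74 and 1.70 RPKM (log2 change -0.58, SE 0.171, limma adjusted p = 0.00926). In both every IAA library was below every uninduced one, and uninduced the first was higher than any of the 3 peaks nearer to Id1. Relative to the median peak, the log2 changes of the 2 marked peaks were -0.30 and -0.03 (limma adjusted p of 0.307 and 0.967). The strongest peaks of the widened windows were on the downstream side of Bmpr1a, at up to 8.88 ± 0.354 RPKM (SD, n = 3) uninduced, 46117 bases from the gene. Other genes lie in these windows, Mmrn2, Ldb3, Mmaa, H13, Mcts2, Bcl2l1 and E2f2 among them, so a peak there need not belong to the BMP gene.

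The wider pathway was described with a list of 49 genes that includes the 8 and was chosen with earlier results of these data known. Of these, 31 had a peak. By limma 21 were lower and 0 were higher, with a median log2 change of -0.52. Over all genes the median was -0.51 and 81.0% were lower. With peaks above the threshold of 0.5 RPKM only, 23 of the 31 were lower, against 86.6% of all genes. Against the median peak 0 of the 31 changed (1.22% of all genes). The counts by role below are to be read against the same shares. Some peaks of this list lie within 1 kb of a start of another protein-coding gene and need not belong to the BMP gene. Without such peaks 16 of 29 genes were lower, against 71.1% of all genes. Among the ligands 4 of 10 had a peak, Bmp7, Bmp8a, Bmp8b and Gdf7, and 3 were lower. Bmp8a was one of the 3 genes with the largest falls (2.20 ± 0.317 to 1.32 ± 0.264 RPKM, SD, n = 3; log2 change -0.70, SE 0.177, limma adjusted p = 0.00403). Among the receptors 5 of 7 had a peak and 4 were lower, Bmpr1a, Bmpr2, Acvr1 and Acvr2b. Acvrl1, a type I receptor best known from endothelium, had one of the smallest changes (1.29 ± 0.325 against 1.16 ± 0.421 RPKM, log2 change -0.17, SE 0.251, limma adjusted p = 0.518).

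All 4 SMADs that transmit the signal had a peak and 2 were lower, Smad5 and the common partner Smad4. Among the 16 inhibitors 9 had a peak and 7 were lower. Skil, a corepressor of SMAD complexes, had the largest fall of the 31 genes (5.35 ± 0.810 to 3.03 ± 0.474 RPKM, log2 change -0.80, SE 0.154, limma adjusted p = 0.00138). Smurf2, a ubiquitin ligase that targets SMADs and receptors, had the smallest change (2.02 ± 0.373 against 1.89 ± 0.336 RPKM, log2 change -0.09, SE 0.174, limma adjusted p = 0.640), and relative to the median peak the highest value, 0.46 (limma unadjusted p = 0.00615, adjusted p = 0.107). Smad7, the other inhibitory SMAD, was the most acetylated of the 31 (6.26 ± 0.555 RPKM uninduced, 4.31 ± 0.501 RPKM after IAA, log2 change -0.53, SE 0.139, limma adjusted p = 0.00451). Among secreted inhibitors, Dand5 and Fstl1 were lower (log2 changes of -0.57 and -0.65), Twsg1 was not called (-0.45, limma adjusted p = 0.0675), and Nog, Chrd, Fst and Cer1 had no peak.

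Among the 9 targets 6 had a peak and 3 were lower, Id1, Msx1 and Tlx2. Id4, the last of the Id genes, had 1 peak and was not called (log2 change -0.35, SE 0.248, limma adjusted p = 0.192), and Msx2 was among the 3 smallest changes (-0.23, SE 0.182, limma adjusted p = 0.235). All 3 E proteins, the partners that ID proteins bind, had a peak, and Tcf3 and Tcf4 were lower. Tcf3 completed the 3 largest falls (3.61 ± 0.331 to 2.20 ± 0.411 RPKM, log2 change -0.70, SE 0.153, limma adjusted p = 0.00226). An OCT4-marked peak was present at 3 of the 31 genes, Bmp7, Ski and Msx2, none of them among the 8.

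**Figure D5:**
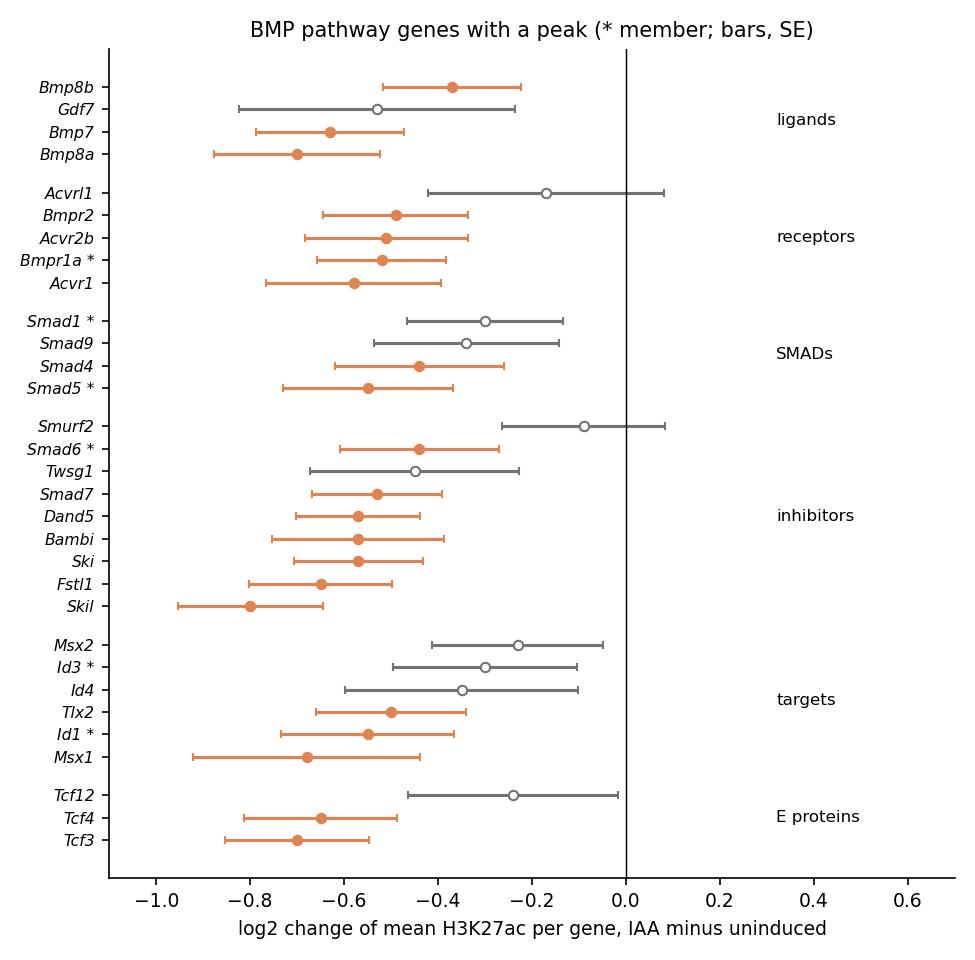
log2 change of mean H3K27ac per gene after IAA (x axis), with the SE from limma, for the 31 genes of the BMP list with a peak (rows, grouped by role; an asterisk marks 1 of the 8 genes). Filled orange points have an adjusted p under 0.05; 21 are filled and 0 are higher after IAA.

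The genes whose values followed each BMP gene most closely over the 6 libraries were sought among 8696 to 8698 genes with a mean of at least 100 reads over the libraries that shared no peak with it. Likeness was the root mean square difference in log2(RPKM + 0.1) after each gene's mean was subtracted. The closest were Scarb2 for Bmpr1a (0.017), Tmem214 for Id1 (0.027), Rasgef1a for Smad6 (0.044), Akap10 for Smad1 (0.048), Cox6c for Smad5 (0.077) and Gm49486 for Id3 (0.144). No gene of the BMP list was among them. Most genes fell together, so a close match is easily found.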

How the data were processed

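Per the labels and the paper's methods, the authors aligned reads to GRCm38 (mm10) with Bowtie2 2.3.4.3, took out duplicates (SAMtools), used MACS2 on the pooled uninduced IPs to call peaks, and deposited RPKM from DiffBind. For MACS2 and DiffBind the version is not given in the sources used here. The labels name the antibody ab4792 and the paper ab4729. The pooled columns are the authors' mean of 3 libraries and served only for the threshold of 0.5 RPKM. With peak length taken as end minus start, 100% of values were whole reads (within 0.001 of a read), which gave library sizes of 31634480 to 39547452 reads. Reads in the 14 peaks numbered 9 to 146 per library (counting error 33.3% and 8.28%). Coordinates of peaks are as deposited, and those beside sequences are counted from 1.

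The 26457 peaks above the threshold, and 13769 protein-coding genes (mean RPKM weighted by peak length, window of 10 kb), were tested with limma 3.58.1 (R 4.3.3, trend and robust) on log2(RPKM + 0.1), with Benjamini-Hochberg adjustment at 0.05. Gene values used all peaks in the window, also those below the threshold. The fits were repeated after each library was centred on its median peak. The peak and gene fits on RPKM as deposited were checked on simulated data, and the centred fits were not. No statement here rests on that check. Single ratios were compared by exact permutation over 20 labellings. Genes came from GENCODE vM21, promoter sequences from RefSeq.

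The labels call the IPs of a group replicates and do not say that they came from separate cultures, so p-values measure the spread between these IPs, which may be technical. Named in the text are all 8 genes with all their peaks, the 3 largest and 3 smallest falls of the wider list and the most alike gene; genes beyond this rule, such as Smad7 and Id4, were chosen after their values were seen. The 8 genes and the lists were chosen with earlier results of these data known. Alternatives were the pseudocount, scaling, limma settings, replicate number as a block, leaving out each library, the threshold and the window.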

Additional observations from a re-analysis of the deposited data

How the results depend on the processing

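Counts of peaks and genes called lower rested on how libraries were scaled. After centring on the median peak, 0 of 14 peaks, 0 of 6 genes and 0 of 31 genes of the wider list were lower, and the median log2 change over the 6 genes was 0.071. The single genes were then at 0.030 (Bmpr1a), 0.251 (Smad1), 0.001 (Smad5), 0.112 (Smad6), 0.006 (Id1) and 0.249 (Id3). With quantile normalization the counts were again 0, 0 and 0, the median was 0.087, and the genes were at 0.039, 0.254, 0.005, 0.136, 0.015 and 0.261 in the same order. Of all peaks and all genes, 1.97% and 0.821% were lower after centring, and 1.67% and 0.559% after quantile normalization. Both scalings take the common fall out of the libraries by construction. Leaving out 1 library gave 4 to 9 lower peaks, 3 to 4 lower genes, 17 to 24 lower genes of the wider list and a median of -0.537 to -0.405. In the same fits 39.2% to 74.1% of all peaks and 57.8% to 86.1% of all genes were lower. Without the RPKM threshold 5 of 14 peaks were lower (49.8% of all peaks). With windows of 50 kb, 29 of 41 peaks and 34 of 40 genes of the wider list were lower, and all 6 genes were called, Smad1 at -0.501 and Id3 at -0.371. In the whole series 68.2% of peaks, and 85.4% of genes with these windows, were lower, and the cause was not tested. The pseudocount, the limma settings, a threshold of 1 RPKM, the gene body alone and leaving out peaks near starts of other genes kept each count within 1.5 times of its value. Leaving out peaks near starts of other genes gave 4 of 6 genes and 16 of 29 genes of the wider list, against 71.1% of all genes. With the gene body alone fewer were tested, and 6 of 9 peaks, 3 of 5 genes and 16 of 25 genes of the wider list were lower. The shares of all peaks and genes were then 68.2% and 75.5%. Id1 had no peak in its body and was not tested there.

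Same-numbered libraries had correlations of -0.014, -0.091 and -0.061 between the deviations of their peaks from the group means. The median deviation of each library was taken out first, so a shift common to a library could not be seen. Reads in peaks fell from replicate 1 to replicate 3 in both groups (7.12%, 6.91% and 6.63% uninduced, 5.15%, 4.68% and 4.05% after IAA). Whether the numbers pair the libraries therefore cannot be settled from these correlations. With the replicate block, 9 of 14 peaks and 4 of 6 genes were lower (71.4% of all peaks and 84.6% of all genes). The limma adjusted p of each of the 6 genes was then lower than without the block. The difference between peaks near OCT4 sites and others could not be computed, since 0 of 14 peaks were marked. At 9 to 36 reads in a library the weaker peaks could not show small changes.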
